A study of Mus musculus with 6 samples.

Results

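The proteasome genes described here were the 50 genes, of 47719 in the expression table, whose symbols begin with Psma, Psmb, Psmc, Psmd, Psme, Psmf or Psmg followed by a digit, with pseudogene symbols ending in -ps left out. They were measured in CD11b+ cells (microglia and other myeloid cells) isolated with magnetic beads from the spinal cord of Biozzi ABH mice aged 3 months. The ECS group had 3 sessions of electroconvulsive stimulation on consecutive days and the control group was sham treated according to the protocol, although its samples are also described as naive; both groups were killed on the following day. Each group had 3 libraries of poly(A) RNA, each made from pooled cells of 5 mice, so that n counts pools and the tests measure the spread between pools. Values are FPKM, a level per length of transcript and per library size. In bulk RNA of this kind, fewer cells of a type and less RNA per cell cannot be told apart.

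The proteasome is the barrel-shaped protease that degrades ubiquitin-tagged proteins. Its core particle, the 20S proteasome, is built of outer rings of alpha subunits and inner rings of beta subunits, and the beta subunits Psmb5, Psmb6 and Psmb7 carry the active sites. Under interferon these are replaced by the inducible subunits Psmb8, Psmb9 and Psmb10, which gives the immunoproteasome, a form that myeloid cells also hold at rest and that is known for making peptides for MHC class I. The 19S regulator, made of an ATPase ring, non-ATPase base subunits and a lid, binds, unfolds and feeds in substrates, and the 11S activators are an alternative cap. When proteasome activity is short, the transcription factor Nrf1 (Nfe2l1) is known to induce subunit genes together through antioxidant response elements in their promoters.

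No proteasome gene passed the test between ECS and control, and the values of the genes were divided evenly in direction. Of the 50 genes, 46 averaged 1 FPKM or more across the libraries and were tested with limma on log2(FPKM + 1), a scale that understates the change of low genes. None of the 46 was called higher and none lower at an adjusted p under 0.05. The background was the same, with 0% of 11315 genes called higher and 0% called lower. At an unadjusted p under 0.05 in limma, 1 of the 46 genes was higher (Psmg1) and 1 was lower (Psmg4), against 1.71% and 1.94% of all genes tested. Psmg4 was under 1 FPKM in every ECS library and met the limit for testing only through control. The fold change was above 0 for 23 of the 46 genes and under 0 for 23, and over all genes tested it was above 0 for 49.2% and under 0 for 50.8%. The median log2 fold change was 0.0040 for the proteasome genes and -0.0078 for all genes tested. All 46 genes had the same adjusted p of 0.9998 in limma, which therefore stands for every fold change given in the text.

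The precision of these comparisons was limited. The half-width of the 95% interval had a median of 1.28 on the log2 scale for the proteasome genes, which is 2.42-fold, against 1.23 for all genes tested. The interval held 0 for 44 of the 46 genes. The narrowest interval was that of Psme1 (0.54 to either side) and the widest that of Psma4 (3.06 to either side). Among the 12 proteasome genes at 20 FPKM or more, the median within-group SD was 0.638 on the log2 scale, against 0.421 for the 3183 genes of that level in the table. Between 5 and 20 FPKM it was 0.778 for 21 proteasome genes, against 0.637 for 3692 genes. Between 1 and 5 FPKM the order was turned, with a median within-group SD of 0.743 for 13 proteasome genes and 0.804 for 4440 genes.

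**Figure D1:**
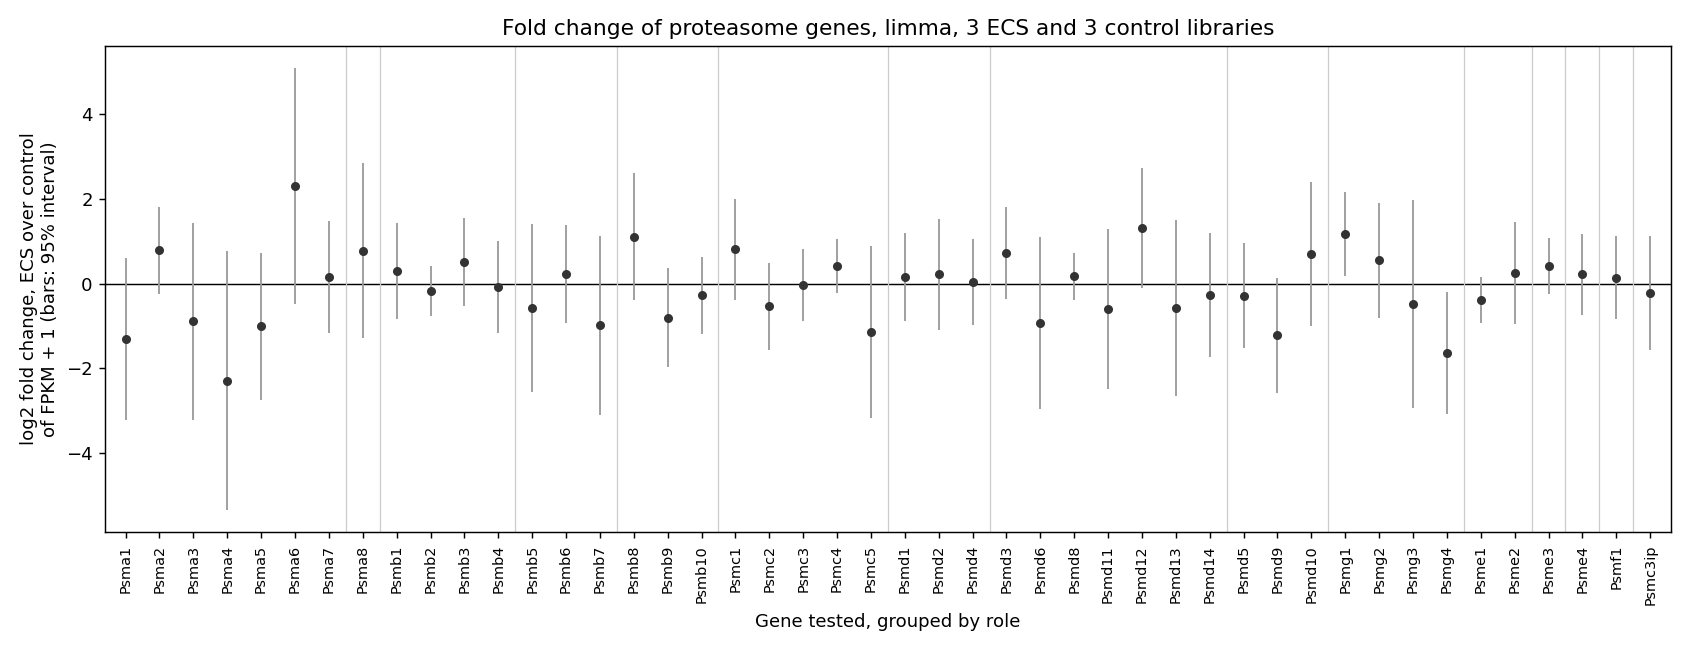
Log2 fold change of log2(FPKM + 1), ECS minus control, for each of the 46 proteasome genes tested, ordered by role, with its 95% interval from limma. The points lie on both sides of 0, 23 above and 23 below, and 44 of the 46 intervals hold 0.

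Promoters are shown for genes the comparisons turn on: the catalytic pairs Psmb5 and Psmb8, and Psmb6 and Psmb9, and the genes Psmd12 and Psmd9, which were among the genes with the smallest p and whose promoters hold an antioxidant response element. The sequences are the 250 bases before the gene's start as RefSeq places it (GRCm38.p6), 5′ to 3′ on the gene's strand, in which 42 of the 50 genes had a match, with 45 promoters. Those with no match were Psmb1, Psmb2, Psmb7, Psmc3, Psmd3, Psmd7, Psma8 and Psmg2. The positions are chr14:54617996-54618245 on the minus strand for Psmb5, chr17:34197945-34198194 on the plus strand for Psmb8, chr11:70525107-70525356 on the plus strand for Psmb6, chr17:34187331-34187580 on the minus strand for Psmb9, chr11:107479278-107479527 on the plus strand for Psmd12 and chr5:123227940-123228189 on the plus strand for Psmd9. RefSeq and GENCODE M21 place some starts differently: the windows of Psmb8, Psmb9 and Psmd9 lie inside the GENCODE genes, those of Psmb5 and Psmd12 reach a short way into them, and that of Psmb6 lies outside. Capitals mark matches, on either strand, to the antioxidant response element (TGACNNNGC), the interferon-stimulated response element (GAAA repeated after a gap of 2 bases) or CCAAT.
Psmb5: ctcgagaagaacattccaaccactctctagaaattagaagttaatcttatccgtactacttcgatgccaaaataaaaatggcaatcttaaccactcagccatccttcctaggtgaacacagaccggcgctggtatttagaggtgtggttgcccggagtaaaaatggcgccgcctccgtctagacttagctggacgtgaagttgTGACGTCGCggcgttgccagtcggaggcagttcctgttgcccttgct
Psmb8: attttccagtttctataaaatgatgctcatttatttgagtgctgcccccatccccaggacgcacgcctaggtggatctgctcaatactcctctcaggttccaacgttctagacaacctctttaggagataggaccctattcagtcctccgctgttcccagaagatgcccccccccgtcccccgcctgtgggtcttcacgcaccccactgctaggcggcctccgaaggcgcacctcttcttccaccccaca
Psmb6: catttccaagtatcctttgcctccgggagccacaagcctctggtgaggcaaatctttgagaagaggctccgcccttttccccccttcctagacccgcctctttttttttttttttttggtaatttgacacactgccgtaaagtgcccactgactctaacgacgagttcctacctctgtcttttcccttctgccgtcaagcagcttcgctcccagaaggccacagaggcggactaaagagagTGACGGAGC
Psmb9: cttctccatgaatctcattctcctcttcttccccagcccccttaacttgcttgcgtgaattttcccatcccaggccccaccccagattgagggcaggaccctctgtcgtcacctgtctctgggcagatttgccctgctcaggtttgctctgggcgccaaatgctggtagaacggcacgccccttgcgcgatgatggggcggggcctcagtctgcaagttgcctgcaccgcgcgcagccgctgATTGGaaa
Psmd12: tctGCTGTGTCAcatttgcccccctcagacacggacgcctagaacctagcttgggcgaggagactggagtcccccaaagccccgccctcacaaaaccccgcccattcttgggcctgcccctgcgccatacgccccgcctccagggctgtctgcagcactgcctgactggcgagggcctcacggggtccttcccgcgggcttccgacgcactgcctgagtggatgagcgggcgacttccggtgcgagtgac
Psmd9: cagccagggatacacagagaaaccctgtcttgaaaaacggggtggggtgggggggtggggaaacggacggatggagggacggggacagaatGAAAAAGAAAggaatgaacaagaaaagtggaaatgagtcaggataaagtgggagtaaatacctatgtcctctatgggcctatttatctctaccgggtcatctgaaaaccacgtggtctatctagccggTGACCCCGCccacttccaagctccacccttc

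The antioxidant response element was found in 5 of the 45 proteasome promoters (11.1%), against 10.2% of 32851 promoters in the table. Those 5 belonged to Psmb5, Psmb6, Psmc6, Psmd12 and Psmd9. It lay 47 to 39 bases before the RefSeq start in Psmb5, 9 to 1 bases before it in Psmb6 and 31 to 23 bases before it in Psmd9, and on the opposite strand 247 to 239 bases before it in Psmd12. The interferon-stimulated response element was found in 3 promoters (6.7%, against 2.98% of all), those of Psmb3, Psmd4 and Psmd9, and in Psmd9 it lay 159 to 150 bases before the RefSeq start. CCAAT was found in 15 promoters (33.3%, against 33.8% of all), and in Psmb9 it lay on the opposite strand 8 to 4 bases before the RefSeq start. In the promoters shown, no matches overlapped, and the window of Psmb8 held none of these letters. Of the 5 genes with an antioxidant response element, 2 had positive fold changes (Psmb6 and Psmd12), 2 had negative ones (Psmb5 and Psmd9) and Psmc6 was under the limit for testing.

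The levels of the proteasome genes ranged widely from gene to gene, as the plot of levels by gene shows. Psme1 was the most abundant, at a mean of 292 FPKM over the 6 libraries, followed by the lid subunit gene Psmd8 at 125 FPKM and the beta subunit gene Psmb2 at 103 FPKM. Among the 14 constitutive core subunits, which are present in equal numbers in the assembled particle, Psmb2 was 70.7 times as abundant as Psmb5, which averaged 1.46 FPKM. Among the 31 subunits of the constitutive 26S particle that the name rule covers, Psmd8 was 156 times as abundant as Psmd7, which averaged 0.804 FPKM. The median of these 31 was 6.62 FPKM. The order of the 50 genes was similar in all libraries. Spearman's rho, as a description, was 0.713 to 0.885 between pairs of ECS libraries, 0.648 to 0.823 between pairs of control libraries and 0.594 to 0.882 between an ECS and a control library.

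**Figure D2:**
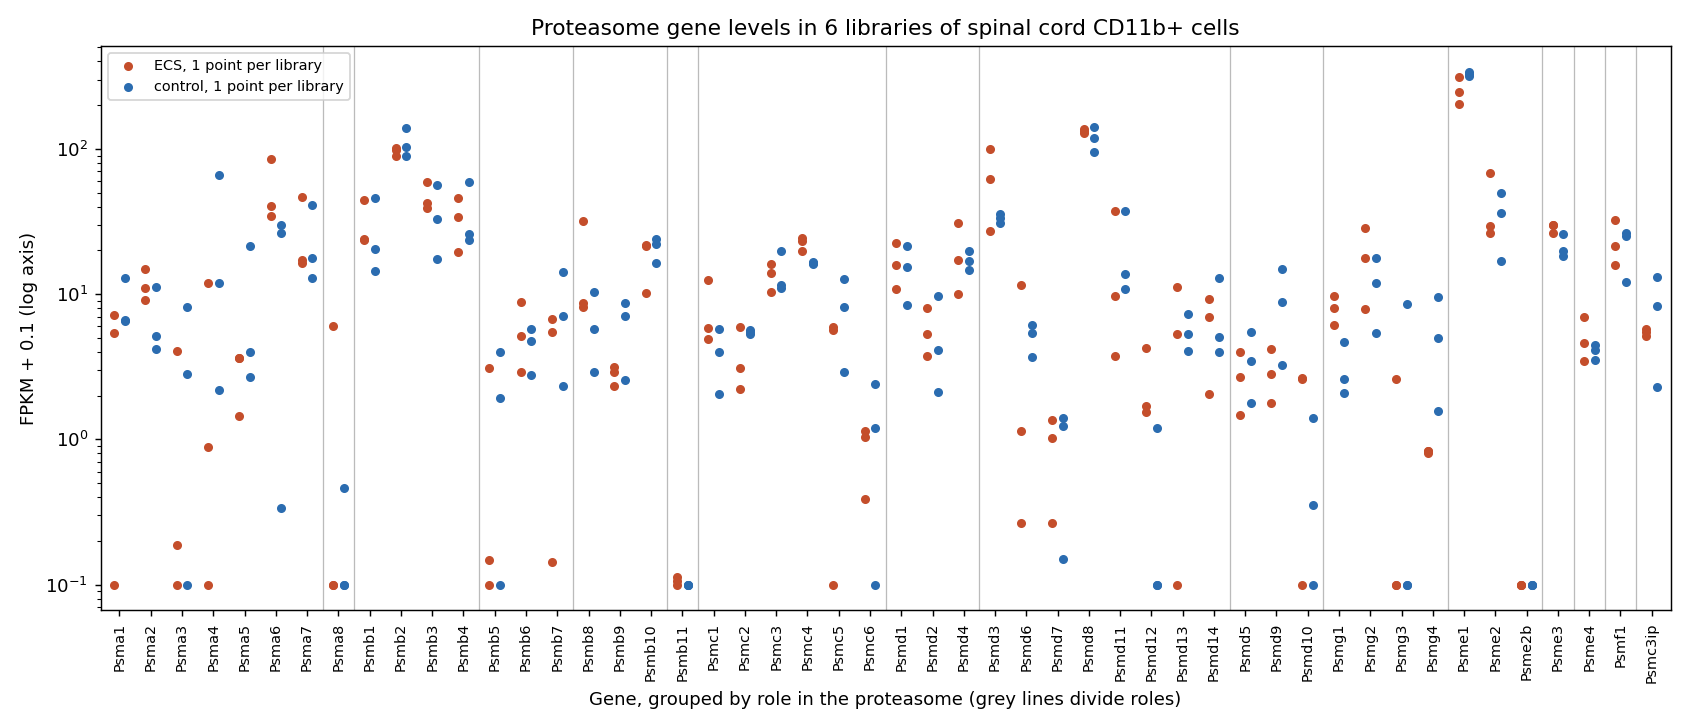
FPKM + 0.1 on a log axis for each of the 50 genes matched by name, grouped by role, with 1 point per library for ECS (left of each pair) and control (right). Psme1, Psmd8 and Psmb2 are the highest, the points of ECS and control interleave for most genes, and the points on the lowest line are values listed at 0.

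The summed FPKM of all 50 genes was 1111, 1083 and 1034 in ECS libraries 1 to 3, against 1023, 1106 and 1119 in control libraries 1 to 3. This was 0.1199%, 0.122% and 0.117% of the FPKM total of the ECS libraries, against 0.124%, 0.110% and 0.153% of that of the control libraries. The groups overlapped on both scales, and control 3, the library with the highest share, also had the lowest FPKM total of all, 729831. Of the 46 genes tested, 10 (21.7%) had an exact 0 in 1 or more libraries, against 20% of all genes tested. Among the tested proteasome genes, 7, 1 and 3 were listed at 0 in ECS 1 to 3. Their numbers in control 1 to 3 were 2, 2 and 5. Of all 11315 genes tested, 1580, 448 and 492 were listed at 0 in ECS 1 to 3. In control 1 to 3 the numbers were 513, 806 and 678. ECS 1 also had the fewest genes above 0 in the whole table, 11427. ECS 1 stood at an extreme for 28 of the 46 genes (60.9%, against 49.3% of all genes tested), as the highest library for 15 and as the lowest for 13. ECS 3 was at an extreme for 5 of them (10.9%, against 21.4% of all genes tested).

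The alpha ring, whose subunits gate the entry to the core, had 7 genes, of which 3 had positive and 4 negative fold changes. Psma6 was at 84.5, 34.6 and 40.5 FPKM in ECS 1 to 3, against 29.7, 26.4 and 0.237 in control 1 to 3. The ECS libraries all lay above the control libraries, and control 3 was far under the rest. The log2 fold change of Psma6 was 2.31 ± 1.19 (SE) and did not pass limma's adjusted threshold; it was 0.79 without control 3. Psma2 was at 14.7, 10.9 and 9.06 FPKM in ECS, against 11.01, 4.07 and 5.03 in control, with a log2 fold change of 0.79 ± 0.44. Here the groups overlapped through control 1. Psma7 was at 46.6, 17.2 and 16.2 FPKM in ECS, against 17.5, 12.7 and 41.2 in control, and 1 library in each group stood above the others.

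Psma4 had the widest spread within groups of all 46 genes, with a within-group SD of 2.08 on the log2 scale. It was listed at 0 in ECS 1 and stood at 11.9 and 0.780 FPKM in ECS 2 and ECS 3, against 2.08, 11.9 and 65.9 FPKM in control. The groups overlapped, control 3 stood far above the other libraries, and the log2 fold change was -2.29 ± 1.30, or -1.15 without control 3. Psma1 was listed at 0 in ECS 1 and was at 5.33 and 7.04 FPKM in ECS 2 and ECS 3, against 12.9, 6.56 and 6.46 in control. Psma3 was listed at 0 in ECS 1 and was at 3.96 and 0.0877 FPKM in ECS 2 and ECS 3, against 8.08, 2.73 and 0 in control. Both showed groups that overlapped once the libraries were set side by side. Psma5 was at 3.54, 3.52 and 1.35 FPKM in ECS, against 2.57, 3.89 and 21.4 in control, where control 3 alone was high. Psma8, the germ-line form of Psma7, was at 5.92 FPKM in ECS 1 and 0.365 in control 1, and was listed at 0 in the other 4 libraries.

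The structural beta subunits, which hold the rings together without an active site, included Psmb2, whose within-group SD of 0.24 on the log2 scale was small for the set. Psmb2 was at 97.7, 101 and 89.1 FPKM in ECS, against 103, 138 and 88.8 in control. Psmb3 was at 42.2, 58.8 and 39.2 FPKM in ECS, against 32.6, 56.6 and 17.5 in control. For both, the control libraries spanned a wider range than the ECS libraries and the groups overlapped. Psmb4 was at 19.5, 46.0 and 33.8 FPKM in ECS and at 23.5, 58.7 and 25.9 in control. Psmb1 was at 44.7, 23.9 and 23.6 FPKM in ECS and at 20.3, 14.3 and 45.6 in control. Of the 4 genes, 2 had positive and 2 negative fold changes, the largest being 0.51 for Psmb3.

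In mean FPKM over the 6 libraries, Psmb8 (11.2) stood above its constitutive counterpart Psmb5 (1.46) and Psmb10 (19.3) above Psmb7 (5.88), while Psmb9 (4.33) and Psmb6 (4.92) were close. Psmb8 (17:34197721-34201454), the inducible counterpart of Psmb5 with chymotrypsin-like activity, was at 32.0, 8.53 and 8.02 FPKM in ECS, against 2.82, 10.2 and 5.61 in control. Only ECS 1 lay above the control libraries, and the groups overlapped. The means were 16.2 ± 13.7 FPKM in ECS and 6.20 ± 3.71 in control (SD, n = 3 each), and the log2 fold change was 1.11 ± 0.64, or 0.50 without ECS 1 and 0.72 without control 1. Psmb5 (14:54614119-54618022) was listed at 0 in ECS 1 and was at 2.99 and 0.0465 FPKM in ECS 2 and ECS 3, against 0, 1.83 and 3.88 FPKM in control. Its log2 fold change was -0.58 ± 0.85, and lay between -1.23 and -0.23 when any single library but control 3 was left out. Without control 3, its highest library, Psmb5 fell under the limit for testing. It was under 4 FPKM in all 6 libraries.

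Psmb9 (17:34181987-34187764), the inducible counterpart of Psmb6, was at 2.22, 2.81 and 3.03 FPKM in ECS, against 2.45, 6.92 and 8.53 in control. The ECS values lay close together, and control 1 was within their range. The means were 2.69 ± 0.416 FPKM in ECS and 5.97 ± 3.15 in control (SD, n = 3 each), and the log2 fold change was -0.80 ± 0.50, or -0.51 without control 3 and -1.24 without control 1. Psmb6 (11:70525367-70527858), which cleaves after acidic residues, was at 8.70, 5.01 and 2.80 FPKM in ECS, against 4.66, 5.68 and 2.67 in control, with a log2 fold change of 0.23 ± 0.49. Its sign was reversed without ECS 1 or without control 3. Psmb10 (8:105935735-105938444), the inducible counterpart of Psmb7, was at 21.3, 10.1 and 21.8 FPKM in ECS, against 22.1, 23.96 and 16.4 in control. The single low value was that of ECS 2; the log2 fold change was -0.28 ± 0.38, and 0.064 without that library. Psmb7 (2:38588036-38644087), which has trypsin-like activity, was at 0.0433, 6.60 and 5.35 FPKM in ECS, against 2.24, 14.1 and 6.96 in control, with a log2 fold change of -0.98 ± 0.90. That value rested largely on ECS 1: it was -0.071 without ECS 1, -0.46 without control 2, -1.50 without ECS 2 and -1.57 without control 1. The groups of all 6 catalytic genes overlapped. Psmb11, the catalytic subunit of the thymus, was at most 0.0118 FPKM in any library.

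The summed level of the 3 inducible subunits was 55.5, 21.5 and 32.9 FPKM in ECS, against 27.4, 41.0 and 30.5 in control. The summed level of the 3 constitutive catalytic subunits was 8.74, 14.6 and 8.19 FPKM in ECS, against 6.90, 21.6 and 13.5 in control. The inducible subunits thus made up 86.4%, 59.5% and 80.0% of the catalytic subunit FPKM in ECS, against 79.9%, 65.5% and 69.3% in control. They were the larger part in all 6 libraries. The mean share was 75.3% ± 14.1 in ECS and 71.6% ± 7.43 in control (SD, n = 3 each), and the difference of 3.73 percentage points was smaller than either SD. ECS held both the highest and the lowest share, so the groups overlapped.

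**Figure D3:**
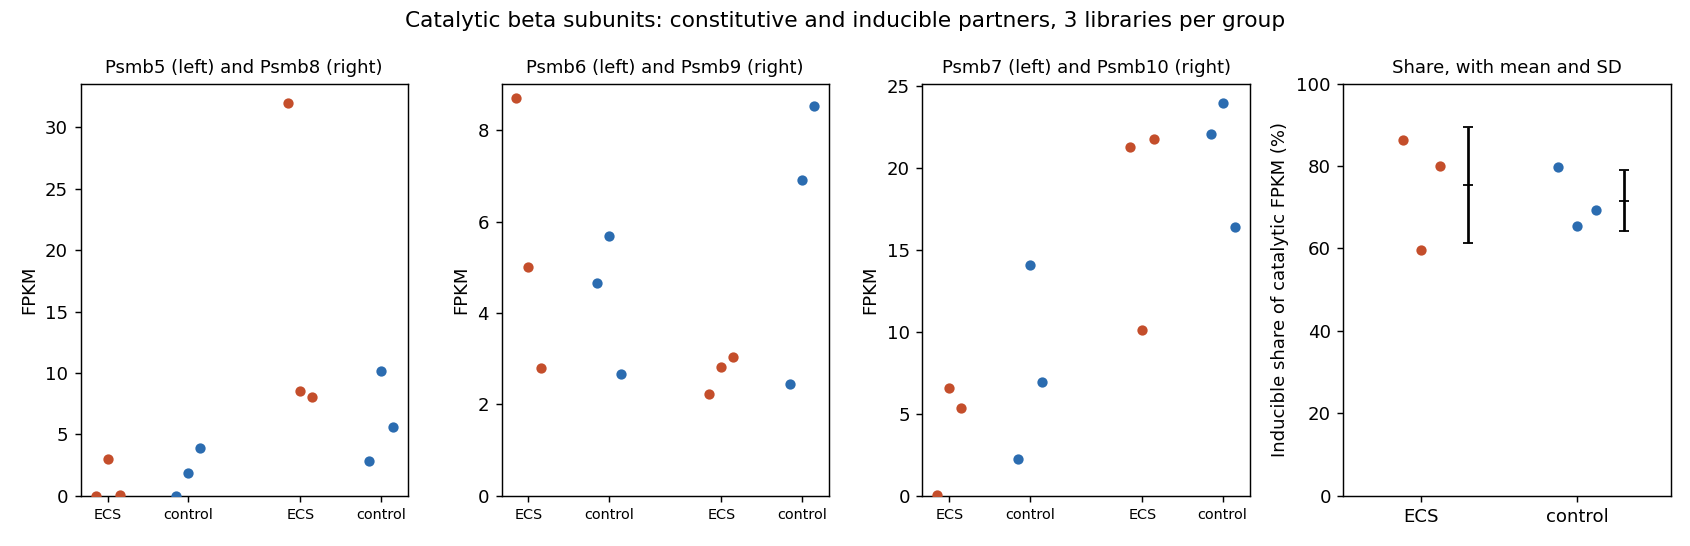
FPKM of the 3 constitutive catalytic subunit genes and of their inducible counterparts, and the inducible share of the summed catalytic FPKM in percent, with 1 point per library for ECS and for control and, for the share, black bars for the mean ± SD of 3 libraries. ECS and control points overlap in each panel, and the share lies between 59.5% and 86.4% in all 6 libraries.

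The 19S regulator had 17 genes under the name rule, of which 15 were tested, with 8 positive and 7 negative fold changes. In the ATPase ring, which unfolds the substrate, Psmc4 was at 19.6, 24.1 and 23.3 FPKM in ECS, against 16.6, 16.2 and 16.1 in control. All 3 ECS libraries lay above all 3 control libraries. The means were 22.3 ± 2.42 FPKM in ECS and 16.3 ± 0.281 in control (SD, n = 3 each), and the log2 fold change of 0.43 ± 0.27 did not pass limma's adjusted threshold. Psmc3 was at 10.3, 13.8 and 16.05 FPKM in ECS and at 19.6, 10.9 and 11.5 in control, and Psmc1 and Psmc2 also overlapped between groups. Psmc2 averaged 3.66 ± 1.95 FPKM in ECS and 5.38 ± 0.141 in control (SD, n = 3 each). Psmc5 was listed at 0 in ECS 1 and was at 5.52 and 5.84 FPKM in ECS 2 and ECS 3, against 12.7, 8.04 and 2.82 in control. Psmc6, under the limit for testing, was at 0.290, 1.05 and 0.935 FPKM in ECS and at 1.10, 0 and 2.30 in control.

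Of the non-ATPase base genes, Psmd1, Psmd2 and the ubiquitin receptor Psmd4 all had positive fold changes, of at most 0.22 on the log2 scale. Psmd4 was at 30.6, 17.1 and 9.97 FPKM in ECS, against 19.9, 14.6 and 16.8 in control. In these 3 genes the groups overlapped. In the lid, which removes ubiquitin from the substrate through Psmd14, 7 of 8 genes were tested, with 3 positive and 4 negative fold changes. Psmd8 was at 128, 136 and 132 FPKM in ECS, against 118, 94.7 and 142 in control, and the ECS values lay within the control range. Psmd3 was at 99.3, 27.0 and 61.6 FPKM in ECS, against 33.5, 30.6 and 35.3 in control. Its ECS libraries lay on both sides of a narrow control range. Psmd14 was at 1.95, 9.12 and 6.87 FPKM in ECS, against 3.91, 4.95 and 12.9 in control.

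Psmd12 (11:107479484-107504362), a lid subunit gene, was at 1.58, 4.16 and 1.43 FPKM in ECS, against 1.10, 0 and 0 in control. All 3 ECS libraries lay above all 3 control libraries, and control 1 was the only control library with a value above 0. The control mean was 0.368 FPKM, so Psmd12 met the limit for testing only through ECS. Its log2 fold change was 1.32 ± 0.61. Psmd11 was at 3.68, 37.1 and 9.55 FPKM in ECS, against 37.2, 13.7 and 10.7 in control. Psmd13 was listed at 0 in ECS 1 and was at 11.2 and 5.23 FPKM in ECS 2 and ECS 3, against 3.96, 7.18 and 5.19 in control. Psmd6 was at 0.166, 11.5 and 1.04 FPKM in ECS, against 5.26, 3.60 and 6.04 in control. In these 3 genes ECS 1 was the lowest library. Psmd7, under the limit for testing, was at most 1.30 FPKM in any library and had its lowest value, 0.0491 FPKM, in control 1.

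The assembly factors held both genes with an unadjusted p under 0.05. Psmg1 (16:95979933-95990960) encodes a chaperone that pairs with Psmg2 to build the alpha ring. It was at 7.87, 6.05 and 9.66 FPKM in ECS, against 2.50, 4.58 and 1.99 in control. The lowest ECS library lay above the highest control library. The means were 7.86 ± 1.80 FPKM in ECS and 3.02 ± 1.37 in control (SD, n = 3 each), and the log2 fold change was 1.17 ± 0.42, with a 95% interval of 0.18 to 2.16. It stayed between 0.98 and 1.43 when any library was left out. Its partner Psmg2 was at 28.4, 7.83 and 17.7 FPKM in ECS, against 5.33, 11.9 and 17.7 in control, and there the groups overlapped.

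Psmg4 (13:34162964-34178173) acts with Psmg3 in the same step. Psmg4 was at 0.732, 0.729 and 0.711 FPKM in ECS, against 1.47, 4.86 and 9.49 in control. The ECS values were nearly equal and all under the control values, which lay far apart. They were also all under 1 FPKM, so Psmg4 met the limit for testing only through control. The means were 0.724 ± 0.0114 FPKM in ECS and 5.27 ± 4.03 in control (SD, n = 3 each), and the log2 fold change was -1.63 ± 0.62, with a 95% interval of -3.07 to -0.18. Psmg3 was at 2.52 FPKM in ECS 2 and 8.51 in control 2 and was listed at 0 in the other 4 libraries. The chaperones Psmg1 and Psmg4 thus stood on opposite sides of 0, and neither passed limma's adjusted threshold.

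The chaperones of the 19S base were low. Psmd9 (5:123169413-123250131) was at 1.68, 4.06 and 2.73 FPKM in ECS, against 8.70, 14.9 and 3.14 in control. ECS 2 lay above control 3, so the groups overlapped. The means were 2.82 ± 1.19 FPKM in ECS and 8.90 ± 5.86 in control (SD, n = 3 each), and the log2 fold change was -1.22 ± 0.58, or -0.78 without control 2. Psmd5 was at 3.90, 1.37 and 2.61 FPKM in ECS and at 5.40, 1.69 and 3.34 in control. Psmd10, known as gankyrin, was at 2.56, 2.48 and 0 FPKM in ECS and at 0.251, 1.30 and 0 in control. Both had overlapping groups.

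Psme1 (14:55578123-55581529) encodes the alpha subunit of the interferon-inducible 11S activator. It was at 204, 248 and 314 FPKM in ECS, against 328, 318 and 341 in control. All 3 ECS libraries lay under all 3 control libraries, with ECS 3 just below control 2. The means were 255 ± 55.6 FPKM in ECS and 329 ± 11.6 in control (SD, n = 3 each), and the log2 fold change was -0.39 ± 0.23, with a 95% interval of -0.93 to 0.16. Without ECS 1 it was -0.23. Psme2 (14:55587441-55591113), its neighbour on the chromosome and partner in the same ring, was at 26.3, 68.1 and 29.2 FPKM in ECS, against 16.7, 36.1 and 50.0 in control. Its groups overlapped. The ratio of Psme1 to Psme2 was 7.74, 3.64 and 10.8 in ECS, against 19.6, 8.81 and 6.82 in control, and it also overlapped. Psme2b, a near-identical copy of Psme2, was listed at 0 in all 6 libraries.

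Psme3, which encodes the 11S activator of the nucleus, was at 29.8, 29.7 and 26.2 FPKM in ECS, against 18.3, 25.9 and 19.6 in control. The ECS libraries all lay above the control libraries, with ECS 3 and control 2 close together. The means were 28.6 ± 2.08 FPKM in ECS and 21.2 ± 4.06 in control (SD, n = 3 each), and the log2 fold change was 0.42 ± 0.28. Psme4, the PA200 activator gene, was at 6.90, 3.36 and 4.54 FPKM in ECS and at 3.399, 4.39 and 4.02 in control. Psmf1, the gene of the inhibitor PI31, was at 32.3, 15.8 and 21.5 FPKM in ECS and at 25.0, 26.4 and 12.05 in control. Both had overlapping groups. Psmc3ip carries a proteasome-like symbol but is not a subunit; it is known as a partner of recombination proteins in meiosis and was at 5.08, 5.61 and 5.43 FPKM in ECS and at 8.19, 13.005 and 2.19 in control.

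In all, every ECS library lay above every control library for 5 of the 46 genes tested (10.9%), Psma6, Psmc4, Psmd12, Psme3 and Psmg1, and under it for 2 (4.35%), Psme1 and Psmg4. Over all genes tested, the ECS libraries were all above for 3.7% and all below for 3.79%. These 7 genes come from the alpha ring, the ATPase ring, the lid, the 11S activators and the chaperones. No role had more than 1 gene above, and no gene of the catalytic subunits was among them. Psmd12 and Psmg4 met the limit for testing only through the group where they were high.

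**Figure D4:**
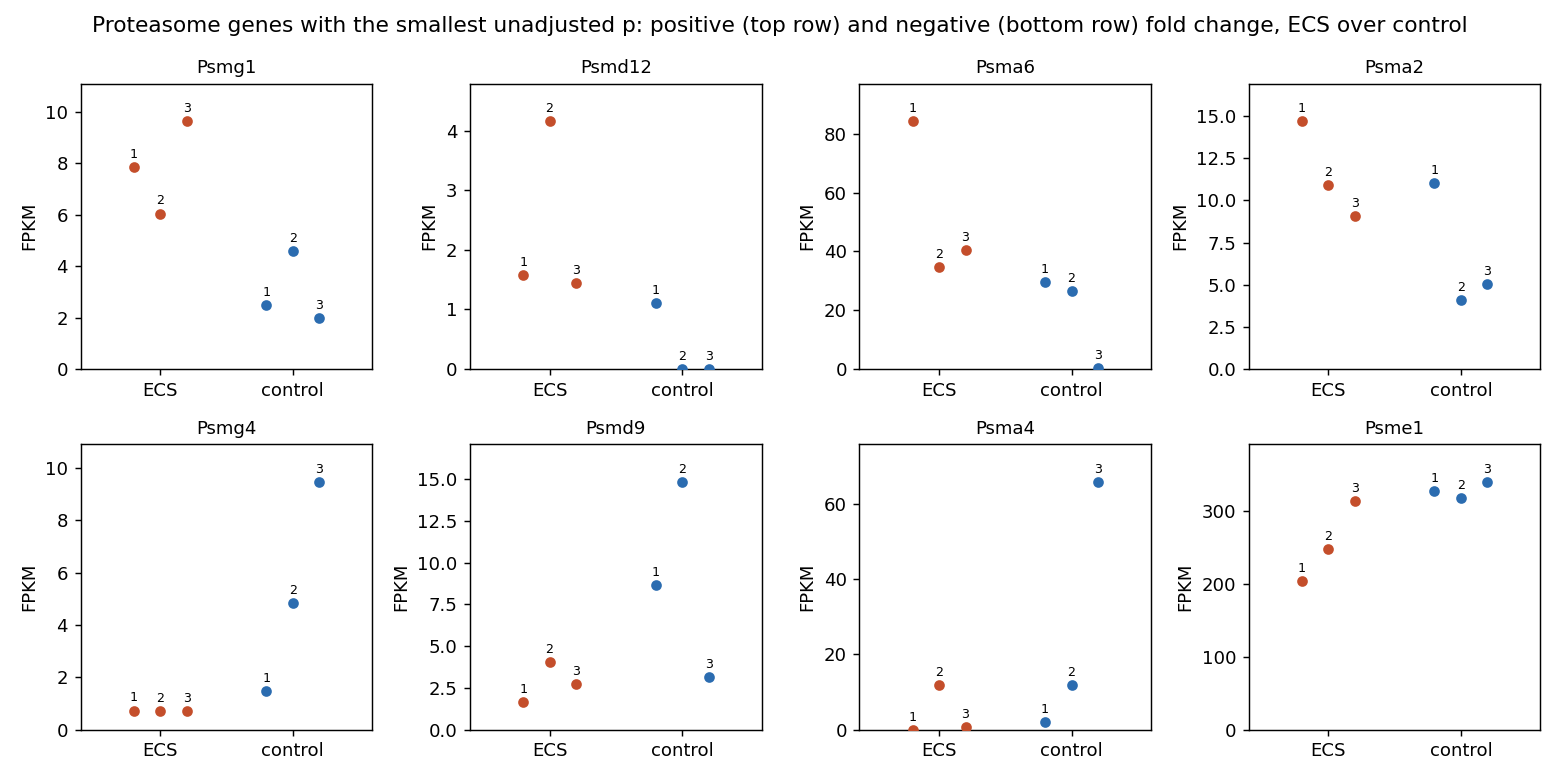
FPKM per library, ECS left and control right, for the 4 genes with the smallest p among positive fold changes (top row) and the 4 among negative fold changes (bottom row). Psmg1, Psmd12 and Psma6 have all ECS points above all control points, Psmg4 and Psme1 have all ECS points below, and the points overlap in Psma2, Psmd9 and Psma4.

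Reads of some of these genes can be shared with other genes, and the part of this in their values was not tested. For 10 of the 50 genes, the reference transcripts hold near-identical copies elsewhere in the genome. They are Psma3, Psma4, Psma5, Psmb3, Psmb5, Psmc1, Psmd2, Psmd11, Psme2 and Psme2b. There were 18 copies in all, of which 5 had values above 0, and 1 of these was Psme2 as the copy of Psme2b. The copies of Psma3, Psma4, Psmb3, Psmb5, Psmd2 and Psme2 that the expression table holds were listed at 0 in all libraries. Those of Psma5, Psmc1 and Psmd11 summed to at most 2.77 FPKM in any library. Of these 10 genes, 4 had an exact 0 in some library, against 9 of the other 40. In addition, 24 genes overlap another annotated gene, such as Psmb9 with Tap1 and Psme1 with Emc9 on the opposite strand, and Psmd9 with Hpd. The sources used here do not say whether strand was used in the counting. Psmg1 and Psmg4 overlap no other gene.

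The other genes of the pathway, in 5 lists, numbered 40, of which 38 were tested. None passed the adjusted test, 15 had positive and 23 negative fold changes, and the median log2 fold change was -0.026. In the Nrf1 pathway, where Ddi2 and Ngly1 process the factor, 2 of 5 genes had positive and 3 negative fold changes. Nfe2l1 itself was at 27.4, 16.8 and 15.0 FPKM in ECS, against 20.1, 17.9 and 20.2 in control (chosen after its values were seen). Ngly1 was at 5.78, 2.47 and 1.73 FPKM in ECS, against 2.02, 1.595 and 1.37 in control. Both overlapped between groups. Ubiquitin supply was 3 positive and 2 negative of 5 tested; Uba1, the main activating enzyme, was at 283, 190 and 209.9 FPKM in ECS, against 225, 136 and 247 in control.

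The shuttle factors that bring ubiquitylated proteins to the proteasome had 3 positive and 5 negative fold changes of 8. Sqstm1, the autophagy receptor p62, was at 573, 586 and 660 FPKM in ECS, against 761, 684 and 611 in control. Of the 8 proteasome partners, 2 had positive and 6 negative fold changes. Pomp, the maturation factor of the core, was at 12.99, 5.73 and 1.41 FPKM in ECS, against 16.4, 3.29 and 15.2 in control. Both genes overlapped between groups. In the list of inducers and of peptide loading, 5 of 12 genes tested had positive and 7 negative fold changes. Tap2 was the only 1 of the 38 pathway genes tested with an unadjusted p under 0.05 in limma. Of all genes tested, 1.94% were lower at that level. Tap2, which pumps proteasome products into the endoplasmic reticulum, was at 26.7, 38.2 and 49.4 FPKM in ECS, against 57.7, 67.9 and 151 in control. All ECS libraries lay under all control libraries, as they did for 3.79% of all genes tested, and the log2 fold change was -1.16 ± 0.43. Irf1, a known inducer of Psmb9, was at 167, 100.5 and 185 FPKM in ECS, against 122, 181 and 128 in control (chosen after its values were seen), and overlapped.

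The libraries were those of CD11b+ cells. Microglia marker genes were above 0 in every library, 2 with positive and 8 with negative fold changes. Their summed FPKM was 8725, 6053 and 9330 in ECS, against 10450, 7753 and 7711 in control. Itgam, the gene of CD11b, was at 747, 625 and 577 FPKM in ECS, against 689, 504 and 558 in control. FPKM totals ranged from 887144 to 926323 in ECS, against 729831 to 1009665 in control. Neutrophil markers, a group of 10, all had negative fold changes, although the groups overlapped for each of them except Ngp. Their summed FPKM was 8589 to 10540 in ECS, against 11190 to 20510 in control, and was above the microglia sum in every library. B cell markers, 4 of 5 tested, had a summed FPKM of 19.9 to 55.7 in ECS, against 8.63 to 35.1 in control, and Ighm was listed at 0 in all libraries. Erythroid markers had a summed FPKM of 36930, 77320 and 7208 in ECS, against 2231, 32810 and 17700 in control. ECS 3 and control 1 were the lowest, although Hba-a1 was above 0 only in them (6510 and 2059 FPKM). They were also the lowest for endothelial and mural markers, at 62.5 and 66.4 (193 to 574 in the other libraries). The same held for fibroblast (6.97 and 5.53, others 14.3 to 47.6) and oligodendrocyte markers (66.3 and 72.65, others 178 to 232). It also held for astrocyte markers (4.13 and 12.05, others 15.1 to 60.35). Negative fold changes were also given by 4 of 5 monocyte markers (summed FPKM of 1010 to 1552 in ECS, against 1258 to 2072 in control) and 4 of 4 tested T and NK cell markers (65.3 to 179 in ECS, against 104 to 296 in control), with Trac listed at 0 in all libraries. Border macrophage markers had positive fold changes for 5 of 7 and a summed FPKM of 148 to 589 in ECS, against 87.2 to 151 in control. Among markers, chosen after their values were seen, the microglial gene Fcrls was at 100.0, 78.2 and 102 FPKM in ECS, against 213, 169.8 and 146 in control, and the border macrophage gene Cbr2 was at 83.2, 109.5 and 86.3 FPKM in ECS, against 63.7, 34.8 and 15.1 in control. The groups overlapped in neither gene, and neither passed limma's adjusted threshold. Of all genes tested, 3.79% had every ECS library below control and 3.7% had every ECS library above. The groups of the other microglia and border macrophage markers overlapped. Of the remaining markers, Ngp and Cd3d were all lower in ECS, and Cd4, under the limit for testing, was all higher. Positive fold changes were given by 1 of 10 endothelial and mural, 4 of 4 fibroblast, 5 of 6 oligodendrocyte, 2 of 3 astrocyte and 0 of 1 neuron markers tested, and no marker passed the adjusted test. The part of these other cells in the values of the proteasome genes, such as Psme1 and Psmb9, was not tested.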

How the data were processed

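Per the labels' protocols, a SENSE kit was used on poly(A) RNA. The authors deposited FPKM per gene. The submitters' processing notes name TopHat2, Cufflinks, Cuffnorm and GRCm38, without versions; strand use and the scaling of libraries were not stated in the sources used. FPKM keeps no read numbers, so depth is unknown, counting intervals cannot be given, and an exact 0 can be a failed estimate.

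The proteasome genes and gene lists were chosen with earlier results of these data known. Rows averaging 1 FPKM or more (11315 of 47719) were transformed as log2(FPKM + 1) and ECS minus control was fitted by limma 3.58.1 (R 4.3.3, trended variance). Tests were two-sided, p was adjusted by Benjamini-Hochberg over the 11315 rows, and the threshold was 0.05. An exact permutation test of 3 against 3 libraries cannot go under 0.1 and was not used. Fold changes are given for the 6 catalytic genes, the 4 smallest p in each direction, the gene of widest spread and, chosen after their values were seen, Psmc4, Psme3 and Psmb3; other lists gave up to 4 genes of smallest p. Positions come from GENCODE M21. Near-identical copies were found with BLAST 2.17.0 (at least 95% identity over 200 bases). Alternatives changed the pseudocount, filter, scaling, test and libraries.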

Additional observations from a re-analysis of the deposited data

How the results depend on the processing

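No gene of the table was called higher and none lower under any of the 20 alternatives run, and the number of genes at an unadjusted p under 0.05 in limma ranged from 260 to 557 (414 as reported). Proteasome genes with positive fold changes numbered 18 to 25 (23 as reported), the 18 being of 33 genes tested with the filter at 5 FPKM. The median log2 fold change of the proteasome genes lay between -0.14 and 0.15. Without both ECS 3 and control 1, 25 of 46 were positive and the median was 0.071. The sign was reversed for Psmb6 and Psmb10 when single libraries were left out: Psmb6 ranged from -0.12 (without ECS 1) to 0.56, and was -0.023 without control 3, and Psmb10 from -0.45 to 0.064 (without ECS 2). Alternatives were run for 14 single genes, the 6 catalytic genes and the 8 of smallest p, and the other 12 kept their sign under every one that could be fitted. Psmc4, Psme3, Psmb3 and Tap2 were fitted only as reported. With the share replaced by the mean log2(FPKM + 1) of the inducible minus that of the constitutive catalytic genes, the difference of ECS minus control was 0.46 on the log2 scale. The inducible share of catalytic FPKM, ECS minus control, ranged from -1.81 to 11.6 percentage points when single libraries were left out. With the replicate number as a replicate block, 0 genes were called and 445 had an unadjusted p under 0.05 in limma. The median log2 fold change of the proteasome genes was then 0.0040. Deviations of same-numbered libraries correlated at -0.038, 0.097 and -0.11, and 2 of 6 libraries correlated best with their own number. The labels give no pairing or batch. With 3 libraries per group, these values cannot decide whether same-numbered libraries were handled together.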

Other observations

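The 4 pseudogenes left out by the name rule, Psmb5-ps, Psmb6-ps, Psmb6-ps2 and Psmb7-ps2, were listed at 0 in all 6 libraries. The proteasome genes lie on 16 chromosomes, with 10 of them on chromosome 11 and 6 on chromosome 14, among them Psmb5, Psme1 and Psme2.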
